A study of Homo sapiens with 8 samples.

Results

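PLA2G2A and 7 other phospholipase A2 genes are described here in the human prostate cancer line C4-2B, a castration-resistant subline of LNCaP. The 8 genes are PLA2G2A, PLA2G4A, PLA2G4F, PLA2G6, PLA2G7, PLA2G10, PLA2G12A and PLA2G15, among 26443 gene rows with values. They were chosen from their symbols and with their FPKM values (fragments counted per kilobase of a gene's length and relative to sequencing depth) in all 4 groups in view, so their levels and differences are a description and carry no test. Each group had 2 libraries and all cells were cultured for 7 days. One group received the solvent DMSO. Another received 10 uM of ENZ, the usual short name of enzalutamide, which blocks the androgen receptor. The next received EPZ6438 at 1 uM (EPZ), or tazemetostat, which blocks EZH2, the histone methyltransferase. The last received ENZ and EPZ6438 together (Combination), for which no separate doses are given. All groups are of 1 cell line, and the labels do not say that the 2 libraries of a group came from separate cultures, so standard errors and p-values may measure technical spread only.

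Phospholipases A2 cut the fatty acid from the middle position of a membrane phospholipid, which leaves a free fatty acid and a lysophospholipid. When the fatty acid is arachidonic acid, cyclooxygenases and lipoxygenases can turn it into prostaglandins and leukotrienes. The secreted enzymes act outside the cell, the cytosolic ones need calcium to reach membranes, and others are calcium-independent, lysosomal or prefer platelet-activating factor. PLA2G2A, the group IIA secreted enzyme, is an acute-phase protein that kills Gram-positive bacteria and is known from studies of prostate tumour tissue.

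The promoters of the members differed in CG content, which is shown first because PLA2G2A and PLA2G6, the members with the highest log2(FPKM + 1) differences between groups, lay far apart in it. RefSeq entries (GRCh38.p14) were matched by symbol for 8 of 8 members. In the 250 bases before the start, CG pairs numbered 2 to 4 at the 3 listed starts of PLA2G2A, 2 at PLA2G4A, 2 at PLA2G4F, 7 and 20 at the 2 starts of PLA2G7, 17 at PLA2G10, 22 at PLA2G6, 26 at PLA2G12A and 29 at PLA2G15. The median over 27305 promoters was 11. The windows printed are the most upstream start of PLA2G2A, chr1:19980435-19980684 on the minus strand, with fewer CG pairs in 15.4% of promoters, and PLA2G6, chr22:38181831-38182080 on the minus strand, with fewer in 72.4%. Both run 5′ to 3′ toward the start, with each CG in capitals, and neither overlaps a GENCODE 29 exon.
PLA2G2A: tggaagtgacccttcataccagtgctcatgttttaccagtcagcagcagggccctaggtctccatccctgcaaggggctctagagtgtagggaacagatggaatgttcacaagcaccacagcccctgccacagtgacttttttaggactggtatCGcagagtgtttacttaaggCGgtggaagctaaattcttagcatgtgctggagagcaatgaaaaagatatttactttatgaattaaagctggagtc
PLA2G6: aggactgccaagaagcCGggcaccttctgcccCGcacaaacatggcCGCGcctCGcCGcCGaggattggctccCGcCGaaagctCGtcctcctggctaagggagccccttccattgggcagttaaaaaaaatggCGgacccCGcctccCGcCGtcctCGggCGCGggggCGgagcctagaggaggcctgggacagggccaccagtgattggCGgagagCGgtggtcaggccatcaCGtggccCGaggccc
The letters AGAACA, a core part of the androgen receptor's binding motif, were searched on both strands and are in 12.4% of promoter windows of this length. They are in neither printed window, and match 1 time in the 250 bases before the third listed start of PLA2G2A, and in no such window of the other 7 genes. TGANTCA (in 6.6% of promoters), TATAAA (in 11.1%) and TTCNNNGAA (in 6.78%), each on both strands, matched in no window before a start of any of the 8 genes. TGANTCA is known for AP-1, TATAAA for the TATA box and TTCNNNGAA for STAT factors.

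The libraries held an estimated 15500000 to 24600000 fragments, read from the steps of the lowest FPKM values. Prostate luminal markers were present, with 7 of 7 at a mean of at least 1 FPKM and a summed level of 1560 to 1590 FPKM in DMSO, 863 to 867 with ENZ, 3630 to 3650 with EPZ and 900 to 924 with Combination. Macrophages and stromal cells can also make PLA2G2A. Of macrophage and leukocyte markers 0 of 5 reached a mean of 1 FPKM, with a sum of 0.111 to 0.214 FPKM in DMSO, 0.0425 to 0.0814 with ENZ, 0.222 to 0.571 with EPZ and 0.161 to 0.379 with Combination. Of basal markers 0 of 3 and of endothelial markers 0 of 3 reached it. Of 5 fibroblast markers COL1A1 alone reached a mean of 1 FPKM. The fibroblast sum was 2.4 to 2.59 FPKM in DMSO, 3.58 to 4.62 with ENZ, 3 to 3.04 with EPZ and 10.7 to 10.9 with Combination, with COL1A2 at 0 in all 8 libraries, and the part of this in the results was not tested. The summed FPKM of all genes was lower with Combination (218646 and 224223) than in DMSO (318599 and 314611). The median log2 difference of all tested genes was −0.15 for Combination against DMSO and against ENZ, −0.112 against EPZ and −0.116 for the interaction, and with median-of-ratios scaling or quantile normalization these medians lay between −0.0291 and 0.0123.

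PLA2G2A, on chromosome 1 (hg38, bases 19975431 to 19980416), was near the detection limit in DMSO and among the most abundant transcripts with Combination. Its level was 0.565 and 0.907 FPKM in the DMSO libraries, 11.7 and 9.37 with EPZ, 103 and 96.6 with ENZ, and 844 and 948 with Combination. No library of one group overlapped those of another, and the order was DMSO, EPZ, ENZ, Combination. The means were 0.736 ± 0.242, 10.5 ± 1.65, 99.6 ± 4.29 and 896 ± 73.9 FPKM (SD, n = 2). The DMSO values rested on an estimated 9 and 19 fragments (exact Poisson 95% intervals 4.12 to 17.1 and 11.4 to 29.7, counting error only), against 2041 and 2172 with ENZ, 295 and 216 with EPZ, and 16791 and 16016 with Combination. A fold against DMSO is therefore imprecise, while the comparisons among treated groups are not limited by depth. In bulk RNA, more cells that express the gene and more RNA per cell cannot be told apart.

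On the ratio of mean FPKM, PLA2G2A stood 135.3-fold above DMSO with ENZ, 14.32-fold with EPZ and 1217-fold with Combination. Combination was 8.997-fold above ENZ and 85.0-fold above EPZ. On the log2(FPKM + 1) scale, which understates the change of low genes, the differences were 5.86, 2.73 and 9.02 against DMSO, 3.15 against ENZ and 6.29 against EPZ, each with a limma standard error of 0.12. These were the highest values of 11874 tested genes for ENZ and for Combination against DMSO and for Combination against EPZ, and they ranked 10 from the top for EPZ against DMSO and 9 for Combination against ENZ. By rank within a library PLA2G2A was at 12156 and 11411 in DMSO, 5078 and 5885 with EPZ, 421 and 435 with ENZ, and 4 in both Combination libraries, where only IGFBP3, EEF2 and RPS6 were higher. It made up 0.386% and 0.423% of summed FPKM there, and 93% and 93.6% of the sum over the 8 members, against 1.44% and 2.29% of that sum in DMSO.

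Whether the 2 agents gave more than their separate effects depended on the scale for PLA2G2A. Adding the single-agent effects in FPKM to the DMSO level gave 109 FPKM, and the Combination mean was 8.19 times that. Multiplying the single-agent ratios gave 1426 FPKM, and the Combination mean was 0.628 of that. The interaction, which is Combination minus ENZ minus EPZ plus DMSO in log2(FPKM + 1), was 0.42 (SE 0.16), and −0.53 with a pseudocount of 0.1. The sign of the departure from multiplied effects thus turned with the pseudocount added to the low DMSO level.

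**Figure D1:**
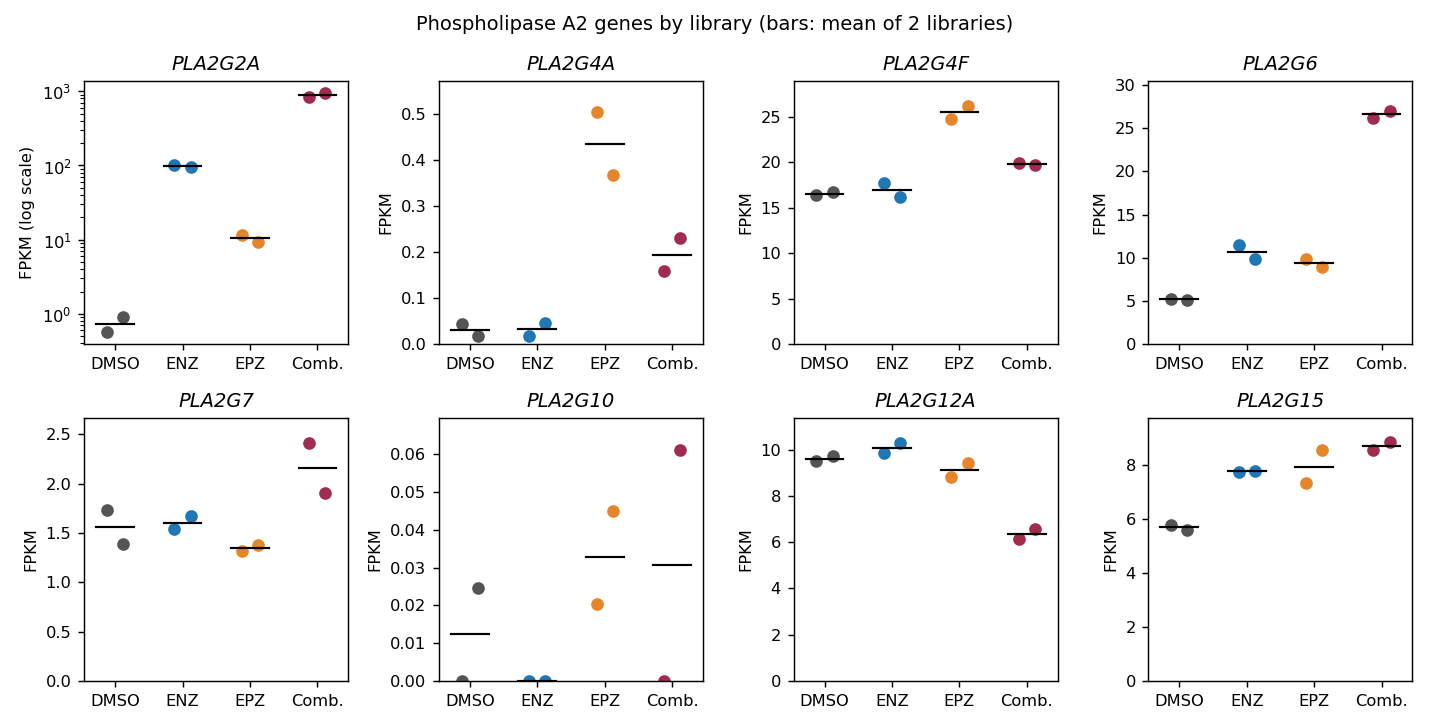
FPKM of the 8 phospholipase A2 genes in each library (points) with group means (bars, n = 2), on a log axis for PLA2G2A and on linear axes from 0 for the others. PLA2G2A runs from under 1 FPKM in DMSO to 844 and 948 FPKM with Combination, PLA2G6 is highest with Combination, and PLA2G12A is lowest there.

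Of the other members that are secreted, PLA2G12A and PLA2G10 did not share that order of groups, and PLA2G7 is described with PLA2G15. PLA2G12A, an atypical secreted enzyme with low catalytic activity (chromosome 4, bases 109709989 to 109730077), stood at 9.51 and 9.73 FPKM in DMSO, 9.88 and 10.3 with ENZ, 8.84 and 9.44 with EPZ, and 6.13 and 6.56 with Combination. Both Combination libraries lay below all others. The log2 difference was 0.06 for ENZ, −0.07 for EPZ and −0.53 for Combination against DMSO (SE 0.067), and the interaction was −0.52 (SE 0.094). Added and multiplied single-agent effects gave 9.59 and 9.568 FPKM against the Combination mean of 6.35 ± 0.302 FPKM (SD, n = 2). The lower Combination level kept its sign under both scaling alternatives. PLA2G10, a secreted enzyme with high activity on phosphatidylcholine (chromosome 16, bases 14672545 to 14694669), was at the detection limit with at most 0.0613 FPKM and 2 estimated fragments in any library. A difference was not detectable at this depth.

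The 2 cytosolic members were higher with EPZ than in the other groups. PLA2G4A, which releases arachidonic acid selectively (chromosome 1, bases 186828953 to 186988981), stood at 0.0443 and 0.0168 FPKM in DMSO, 0.0177 and 0.047 with ENZ, 0.504 and 0.367 with EPZ, and 0.159 and 0.23 with Combination. The estimated fragments were 2 and 1, 1 and 3, 36 and 24, and 9 and 11. ENZ overlapped DMSO, while EPZ and Combination each lay above both, with EPZ above Combination. All of these levels were below the filter of a mean of 1 FPKM, so PLA2G4A was not in the fit. PLA2G4F, a less studied member of that family (chromosome 15, bases 42139034 to 42156636), had the highest level of the 8 genes in DMSO and with EPZ. It stood at 16.4 and 16.7 FPKM in DMSO, 17.7 and 16.2 with ENZ, 24.8 and 26.2 with EPZ, and 19.9 and 19.7 with Combination. ENZ and DMSO overlapped, EPZ was highest, and Combination lay between. The log2 difference was 0.03 for ENZ, 0.59 for EPZ and 0.24 for Combination against DMSO, and −0.35 for Combination against EPZ (SE 0.064), with an interaction of −0.38 (SE 0.09). These values moved with the scaling. Median-of-ratios scaling and quantile normalization gave PLA2G4F 0.41 and 0.59 for Combination against DMSO, 0.39 and 0.51 against ENZ, −0.23 and −0.09 against EPZ, and an interaction of −0.25 and −0.18.

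PLA2G6 was the member whose order over the groups was most like that of PLA2G2A. It is the calcium-independent enzyme of membrane remodelling (chromosome 22, bases 38111495 to 38205690), known for a childhood neurodegeneration when mutated. Its level was 5.24 and 5.13 FPKM in DMSO, 11.5 and 9.81 with ENZ, 9.85 and 8.92 with EPZ, and 26.2 and 27 with Combination. Both single-agent groups were above DMSO and overlapped each other, and Combination was above all. The ratios of means to DMSO were 2.061, 1.811 and 5.137, and the log2 differences 0.91, 0.75 and 2.16 (SE 0.082). Combination exceeded ENZ by 1.25 and EPZ by 1.41. The PLA2G6 interaction was 0.50 (SE 0.12), and 0.91 under quantile normalization, and the Combination mean of 26.6 FPKM was 1.79 times the added and 1.38 times the multiplied single-agent effects. Over the 8 libraries Pearson's r with PLA2G2A on log2(FPKM + 1) was 0.957 for PLA2G6, 0.833 for PLA2G15, 0.688 for PLA2G7, 0.0539 for PLA2G4F and −0.708 for PLA2G12A. The points are 4 groups of 2 libraries, so r reflects group levels.

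PLA2G15 and PLA2G7 moved less. PLA2G15, the lysosomal enzyme (chromosome 16, bases 68245304 to 68261062), stood at 5.79 and 5.61 FPKM in DMSO, 7.74 and 7.78 with ENZ, 7.34 and 8.54 with EPZ, and 8.57 and 8.84 with Combination. All 3 treated groups lay above DMSO, at log2 differences of 0.39, 0.41 and 0.54 (SE 0.076), and ENZ lay within the range of EPZ. The Combination mean of 8.71 FPKM was 0.871 of the added and 0.805 of the multiplied single-agent effects. The PLA2G15 interaction was −0.27 (SE 0.11), and shrank to −0.14 with median-of-ratios scaling and −0.09 under quantile normalization. PLA2G7, which inactivates platelet-activating factor and circulates on lipoproteins (chromosome 6, bases 46704201 to 46735693), stood at 1.73 and 1.39 FPKM in DMSO, 1.54 and 1.67 with ENZ, 1.32 and 1.38 with EPZ, and 2.41 and 1.91 with Combination. These rest on 53 to 92 estimated fragments. EPZ lay just below DMSO and Combination above it, by 0.30 (SE 0.11), and the latter became 0.19 without the first Combination library and −0.017 under quantile normalization.

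Exons of 4 members overlap exons of another annotated gene in GENCODE 29, on the opposite strand for PLA2G6 (AL022322.2), PLA2G7 (TDRD6) and PLA2G15 (AC020978.2) and on the same strand for PLA2G12A (AC126283.2). No strand setting of the counting was at hand, and these levels can include reads of the partner.

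Across the 6 members that passed the filter, more were higher than lower in each comparison with DMSO, and nothing is read from these counts because the same values chose the members. PLA2G2A itself passed the filter through its treated groups. For ENZ against DMSO, 3 of 6 were past the threshold of an adjusted p of 0.05 and higher and 0 lower, where 27.9% of all 11874 tested genes were called higher and 28.8% lower. For EPZ, 4 were higher and 0 lower, beside 23.4% and 32.4% of all genes. For Combination, 5 were higher and 1 lower, beside 33.3% and 47.4%. For Combination against ENZ, 4 were higher and 1 lower, beside 25.3% and 45.5%, and against EPZ 3 were higher and 2 lower, beside 29.2% and 43.7%. For the interaction, 1 was higher and 2 lower, beside 9.99% and 29.6%. Member medians were 0.22, 0.50 and 0.42 against DMSO for ENZ, EPZ and Combination, beside 0.00487, −0.05 and −0.15 for all genes. The 3 comparisons with DMSO share the DMSO libraries.

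**Figure D2:**
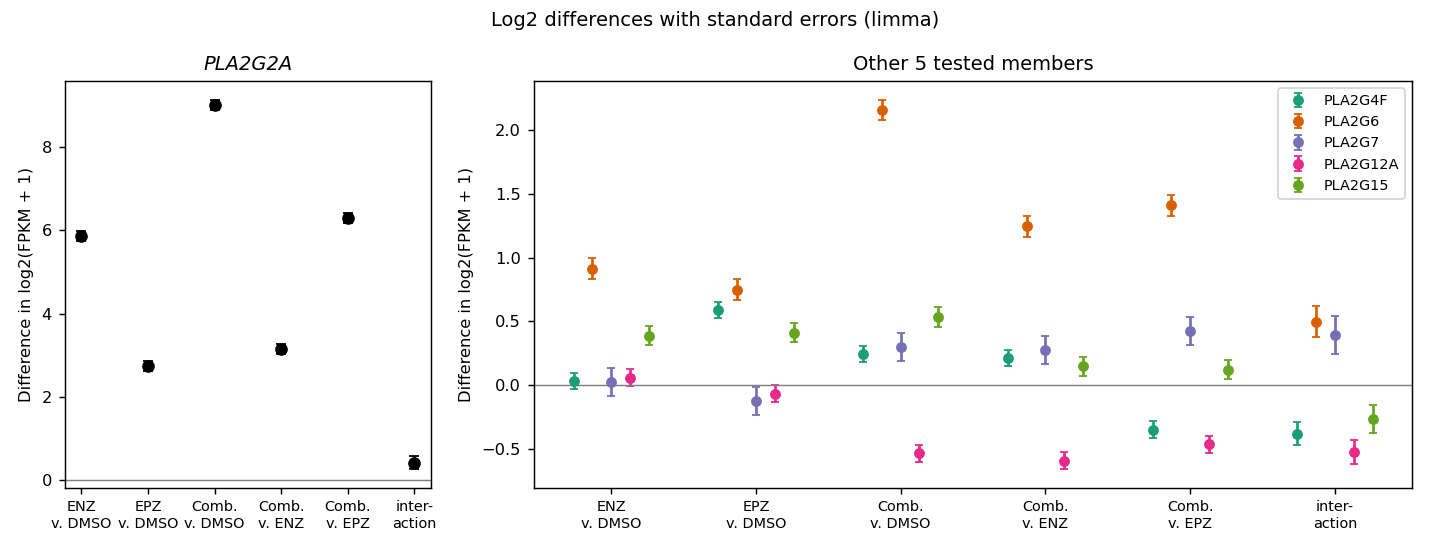
Differences in log2(FPKM + 1) of the 6 members in the fit (points) with limma standard errors (bars), for the 5 comparisons between groups and the interaction, with PLA2G2A on an axis of its own. PLA2G2A reaches 9.02 with Combination against DMSO, PLA2G6 reaches 2.16, and PLA2G12A lies at −0.53 there.

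The order of levels among members changed with treatment. In DMSO it ran PLA2G4F (16.6 FPKM), PLA2G12A, PLA2G15, PLA2G6, PLA2G7, PLA2G2A (0.736 FPKM), then PLA2G4A and PLA2G10, which overlapped. In ENZ PLA2G2A came first, followed by PLA2G4F, then PLA2G6 and PLA2G12A, which overlapped. In EPZ PLA2G4F came first, and PLA2G2A, PLA2G6 and PLA2G12A overlapped with their neighbours in the order. In Combination PLA2G2A came first and PLA2G6 next, above PLA2G4F, PLA2G15 and PLA2G12A, with no overlap between neighbours. PLA2G2A was 32.2 and 35.1 times PLA2G6 in the Combination libraries, and 0.108 and 0.177 times it in DMSO.

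PLA2G2A lies among 5 other secreted phospholipase genes on 1p36, between OTUD3 and UBXN10, and no neighbour was within reach of its level in the treated groups. Against its DMSO level of 0.565 and 0.907 FPKM, OTUD3 was higher and PLA2G5 the closest below. PLA2G2E, the nearest gene on one side, was listed at 0 in all libraries of DMSO, ENZ and EPZ, and at 0.746 and 0.251 FPKM with Combination, from 14 and 4 estimated fragments. PLA2G5 stood at 0.308 and 0.182 FPKM in DMSO, 0.0274 and 0 with ENZ, 0.368 and 0.402 with EPZ, and 0.246 and 0.258 with Combination, so that both ENZ libraries lay below all others. PLA2G2F stood at 0.0238 and 0.0181 FPKM in DMSO, 0.286 and 0.101 with ENZ, 0.0301 and 0.0494 with EPZ, and 0.305 and 0.292 with Combination, higher in the groups that received ENZ on 6 to 16 estimated fragments. PLA2G2D reached at most 0.062 FPKM and PLA2G2C was listed at 0 throughout. UBXN10, at the far end of the cluster, stood at 0 and 0.00883 FPKM in DMSO and 0.167 and 0.074 with ENZ. It stood at 0.0147 and 0.00803 FPKM with EPZ, and 0.093 and 0.197 with Combination. It too was higher in the groups that received ENZ, on 9 to 18 estimated fragments. None of these genes passed the filter.

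OTUD3, a deubiquitinase on the other side of PLA2G2E, was the only gene of the region beside PLA2G2A in the fit. It stood at 1.33 and 1.16 FPKM in DMSO, 2.95 and 3.06 with ENZ, 1.23 and 1.14 with EPZ, and 4.85 and 4.74 with Combination. It rose with ENZ by 0.84 (SE 0.083, limma adjusted p = 3.51e-05) and with Combination by 1.37 (limma adjusted p = 1.72e-07), while EPZ overlapped DMSO (−0.04, limma adjusted p = 0.71). Its interaction was 0.57 (SE 0.12, limma adjusted p = 0.0041). PLA2G2A, in contrast, was also higher with EPZ than in DMSO.

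**Figure D3:**
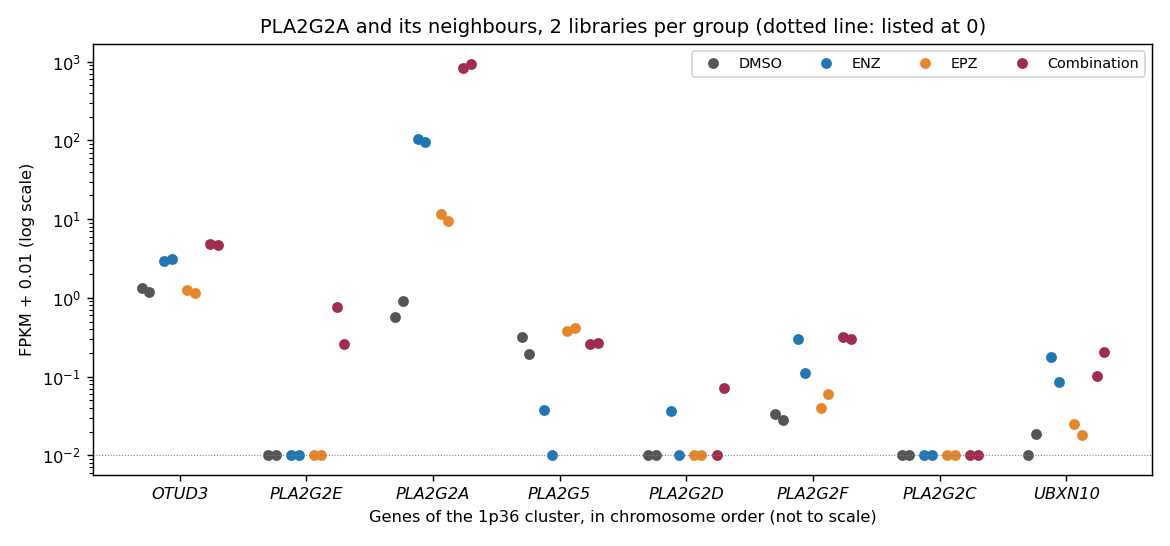
FPKM + 0.01 on a log axis for PLA2G2A and the genes around it on 1p36 in chromosome order, with 2 libraries per group (points). PLA2G2A is the only gene of the region above 5 FPKM in any library, and OTUD3 is higher in the groups that received ENZ.

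Among 3238 genes whose group means spanned at least 1 log2 unit, several followed the order of PLA2G2A closely at much smaller amplitude. Those with the highest Pearson r over the 8 libraries included HLX (a homeobox factor, r = 0.998), SDC4 (the proteoglycan syndecan-4, 0.998), NCOA3 (a nuclear receptor coactivator, 0.998), FZD7 (a Wnt receptor, 0.997) and LTN1 (a ubiquitin ligase of ribosome quality control, 0.997). HLX stood at a mean of 1.32 ± 0.0635 FPKM in DMSO, 3.79 ± 0.146 with EPZ, 9.34 ± 0.352 with ENZ and 22 ± 1.56 with Combination (SD, n = 2). SDC4 stood at 18.1 ± 0.489, 36 ± 1.02, 63.8 ± 2.61 and 119 ± 6.61 FPKM in the same order. Both had DMSO, EPZ, ENZ and Combination in the order of PLA2G2A without overlap. The 3 most opposite were SLC27A5 (a bile acid ligase, r = −0.997), SPG21 (−0.996) and LENG9 (−0.996). SLC27A5 went from 8.22 ± 0.0104 FPKM in DMSO to 3.44 ± 0.146 with Combination. As for the members, r describes 4 group levels.

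**Figure D4:**
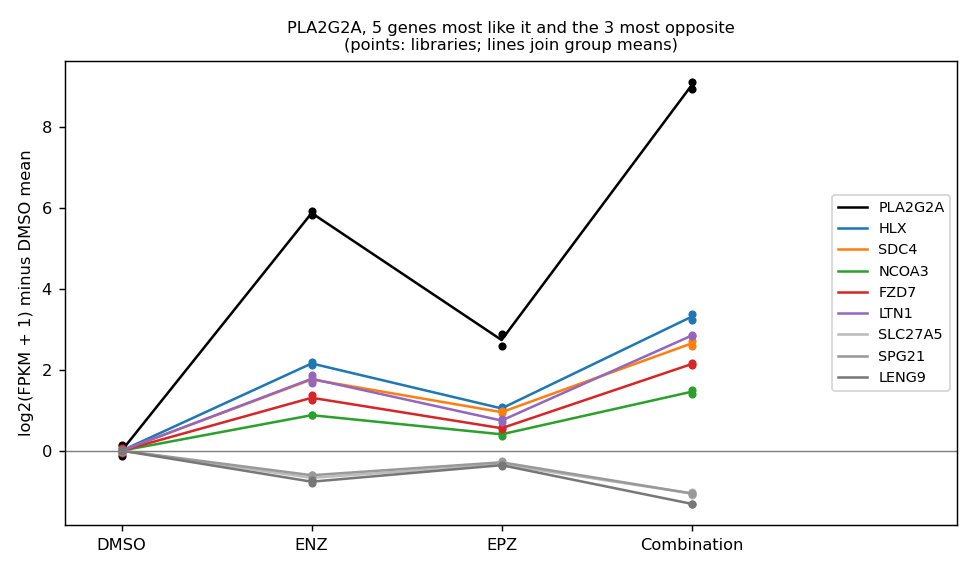
log2(FPKM + 1) minus the DMSO mean for PLA2G2A, 5 genes with the highest and the 3 with the lowest Pearson r with it, with libraries as points and lines joining group means. PLA2G2A spans 9.02 log2 units, while HLX spans 3.31 and NCOA3 spans 1.45.

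Genes that act before, beside or after phospholipase A2 were also examined. Of 99 listed genes in 6 lists, 45 passed the filter and 11 were listed at 0 in all libraries. For ENZ, 12 of the 45 rose and 13 fell, for EPZ 16 rose and 9 fell, and for Combination 13 rose and 26 fell. Among all tested genes, 27.9% rose and 28.8% fell with ENZ, 23.4% and 32.4% with EPZ, and 33.3% and 47.4% with Combination. With median-of-ratios scaling 17 related genes rose and 22 fell with Combination, beside 4768 and 4765 of all tested genes. The median of the 45 was 0.01 for ENZ, 0.11 for EPZ and −0.34 for Combination, beside 0.00487, −0.05 and −0.15 for all genes. For the interaction 20 were lower and 6 higher (median −0.31, all genes −0.12), beside 29.6% and 9.99% of all tested genes. Without the second DMSO library 6 rose with ENZ, and 11 were lower in the interaction without the second EPZ library, 13 without the first Combination library and 11 with median-of-ratios scaling. PLA2R1, the receptor for secreted phospholipases A2, was listed at 0 in all 8 libraries. Of the cyclooxygenases and of the lipoxygenases named by rule, none reached 1 FPKM, with PTGS1 at most 0.267 FPKM, PTGS2 at most 0.0638, ALOX5 at most 0.37 and ALOX15B at most 0.165 FPKM. Some listed lipoxygenases outside the rule, chosen after their values were seen, were expressed. ALOX15 stood at 38.2 to 49.7 FPKM over the 8 libraries, ALOXE3 at 1.11 to 2.84 and ALOX12 at 0.577 to 2.54. ALOX5, which starts leukotriene synthesis, stood at 0.0127 and 0.00962 FPKM in DMSO (1 estimated fragment each), 0.101 and 0.0896 with ENZ, 0.096 and 0.0874 with EPZ, and 0.334 and 0.37 with Combination, and ENZ and EPZ overlapped. Of later leukotriene enzymes, chosen after their values were seen, LTA4H stood at 23.4 and 24 FPKM in DMSO and LTC4S at 1.94 and 2.07. The listed gene ALOX5AP was at 0 in all 8 libraries.

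Of the other phospholipase A2 genes, 7 of 25 passed the filter. In Combination 2 rose and 4 fell (median −0.64, all genes −0.15), with ENZ 1 rose and 1 fell, and with EPZ 2 rose and 2 fell. PRDX6, a peroxiredoxin that also has phospholipase activity, was the most abundant, at 197 ± 2.75 FPKM in DMSO and 91.2 ± 4.45 with Combination (SD, n = 2). It fell by 0.57 with ENZ, by 0.26 with EPZ and by 1.10 with Combination (SE 0.053, limma adjusted p = 3.6e-08 for Combination), and by 0.33 with ENZ and 0.43 with Combination under quantile normalization. The platelet-activating factor acetylhydrolase subunit PAFAH1B3 fell by 0.65 with EPZ (limma adjusted p = 0.000601) and by 1.10 with Combination (limma adjusted p = 4.7e-06). PAFAH1B2 fell by 0.64 with Combination (by 0.33 under quantile normalization), and ABHD3 fell by 0.79 there. Of the regulators, PLAA, the phospholipase A2 activating protein, fell by 0.66 with Combination (limma adjusted p = 6.5e-06). ANXA5, an annexin that covers membrane phospholipid, rose by 0.22 with EPZ (limma adjusted p = 0.00645), and by 0.39 under quantile normalization. Its Combination difference of −0.13 (limma adjusted p = 0.0486) lost its call without any 1 of the DMSO or Combination libraries (−0.16 to −0.10), and it turned to 0.045 with median-of-ratios scaling and 0.50 with quantile normalization. Without the first DMSO or the second EPZ library the call with EPZ was lost too (0.21 and 0.20).

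Of the prostaglandin and leukotriene genes, 13 of 27 passed the filter. In ENZ 4 rose and 4 fell, with EPZ 2 rose and 5 fell, and with Combination 5 rose and 7 fell (median −0.21). PTGES3, a prostaglandin E synthase better known as the HSP90 cochaperone p23, went from 108 ± 0.0591 FPKM in DMSO to 33.7 ± 0.417 with Combination (−1.65, SE 0.075, limma adjusted p = 2.34e-08). PTGES2, another such synthase, fell by 1.15 there (limma adjusted p = 3.93e-07), and CBR1, a carbonyl reductase that acts on prostaglandin E2, fell by 1.88 (limma adjusted p = 7.14e-09). PTGES3, PTGES2 and CBR1 also fell with ENZ and with EPZ, by 0.42 to 0.64. Under quantile normalization PTGES3 was at −1.04 with Combination and lost its call with ENZ (−0.18), and PTGES2 was at −0.64 with Combination, −0.26 with ENZ and −0.25 with EPZ. ABCC4, an exporter of prostaglandins, went opposite ways with the 2 agents, at 37.1 ± 0.00888 FPKM in DMSO, 12 ± 1.06 with ENZ, 62.1 ± 1.92 with EPZ and 32 ± 0.374 with Combination. Its log2 difference was −1.55 with ENZ (limma adjusted p = 1.49e-07), 0.73 with EPZ (limma adjusted p = 1.82e-05) and −0.21 with Combination, the last turning to 0.33 under quantile normalization and losing its call with median-of-ratios scaling (−0.03), without either DMSO library (−0.21 in both cases) or without the first Combination library (−0.19).

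Of the eicosanoid and platelet-activating factor receptors, 4 of 15 passed the filter. In ENZ 0 rose and 2 fell, with EPZ 2 rose and 0 fell, and with Combination 1 rose and 2 fell (median −0.16). PTGFR, the prostaglandin F receptor, stood at 9.71 and 10.4 FPKM in DMSO, 2.43 and 2.89 with ENZ, 22.5 and 24.7 with EPZ, and 7.3 and 8.12 with Combination. It fell by 1.60 with ENZ (limma adjusted p = 7.93e-07) and rose by 1.15 with EPZ (limma adjusted p = 6.29e-06). PTGER4, a prostaglandin E2 receptor, had the same directions, at −1.24 and 0.54, and fell by 1.06 with Combination (limma adjusted p = 6.22e-06). With a pseudocount of 0.1 PTGER4 was at −1.998 with ENZ and −1.62 with Combination. LTB4R, a leukotriene B4 receptor, rose by 0.40 with Combination (limma adjusted p = 0.0083), a call lost without the first Combination library (0.31), without a filter (0.40) and under quantile normalization (0.22).

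Fatty acid activation and phospholipid reacylation, which return a released fatty acid to phospholipid, had 11 of 14 genes in the fit. In EPZ 7 rose and 0 fell (median 0.35, all genes −0.05), with ENZ 5 rose and 2 fell, and with Combination 4 rose and 5 fell (median 0.11). ACSL3, an acyl-CoA synthetase, went from 151 ± 3.57 FPKM in DMSO to 39.7 ± 2.07 with ENZ, 322 ± 15.3 with EPZ and 41 ± 1.52 with Combination. It fell by 1.90 with ENZ and by 1.86 with Combination (limma adjusted p = 2.72e-09) and rose by 1.08 with EPZ. MBOAT2, a lysophospholipid acyltransferase, fell by 2.35 with ENZ (limma adjusted p = 5.67e-09) and rose by 0.37 with EPZ. Its relative MBOAT1 went the other way with ENZ, from 0.688 ± 0.00421 to 4.06 ± 0.198 FPKM (1.58, limma adjusted p = 4.29e-06). ACSL1 rose by 0.88 with EPZ and fell by 0.79 with Combination (limma adjusted p = 9.72e-07), while ENZ differed from DMSO by 0.05 (limma adjusted p = 0.481). Under quantile normalization the Combination differences shrank to −0.19 for ACSL1, −1.21 for ACSL3 and −0.73 for MBOAT2. With a pseudocount of 0.1 MBOAT1 was at 2.399 with ENZ.

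Of the genes of lysophospholipid breakdown and lysophosphatidic acid signalling, 8 of 13 passed the filter. In ENZ 2 rose and 4 fell, with EPZ 2 rose and 2 fell, and with Combination 1 rose and 6 fell (median −0.61). LYPLA1, a lysophospholipase and protein thioesterase, went from 31.9 ± 0.532 FPKM in DMSO to 8.72 ± 0.583 with Combination (−1.76, SE 0.079, limma adjusted p = 2.18e-08), and LYPLA2 fell by 1.01. LPAR3, a lysophosphatidic acid receptor, fell by 1.00 with ENZ (limma adjusted p = 5.65e-06) and by 1.48 with Combination (limma adjusted p = 4.64e-08), and differed by −0.11 with EPZ (limma adjusted p = 0.247). PNPLA7, a lysophospholipase, was the 1 gene that rose with Combination, from 3.61 ± 0.18 to 18.2 ± 0.33 FPKM (2.06, SE 0.11, limma adjusted p = 5.51e-08). It also rose by 0.66 with EPZ and by 0.37 with ENZ, the latter call being lost without the second DMSO library (0.33) or the first ENZ library (0.21), without a filter, and under quantile normalization (0.21).

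**Figure D5:**
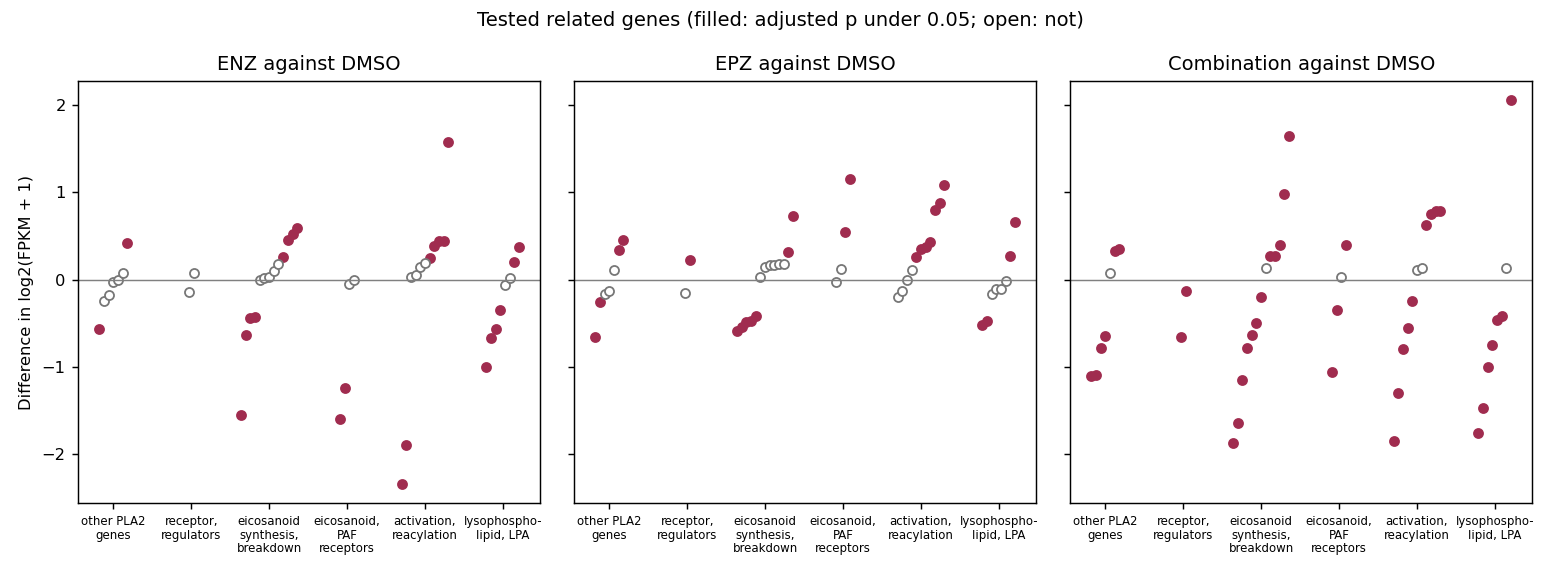
Differences in log2(FPKM + 1) of the 45 tested related genes in 6 lists, for ENZ, EPZ and Combination against DMSO, with filled points at a limma adjusted p under 0.05. With Combination 26 fell and 13 rose (47.4% and 33.3% of all tested genes), and with EPZ 9 fell and 16 rose (32.4% and 23.4%).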

How the data were processed

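RNA-seq libraries of C4-2B cells were made with a NEBNext Ultra RNA kit, per the labels' protocols. The deposited values are FPKM per gene, computed by the authors, in 8 library columns. STAR and hg38 are named in the submitters' processing notes. The counter, annotation and strand setting of the counts were not given in those notes or labels. Of 26475 rows, 26443 had values.

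FPKM were used as deposited, as log2(FPKM + 1). A model with 4 groups was fitted to 11874 genes (mean FPKM 1 or more) with limma 3.58.1 (R 4.3.3), two-sided, with an expression trend (5.47 prior and 4 residual degrees of freedom), and Benjamini-Hochberg adjustment over all tested genes in each of 6 comparisons, at 0.05. The 4 groups share 1 estimate of spread because each has 2 libraries. The fit was tested on simulated data. Where FPKM of a gene were whole multiples of 1 step, fragments were estimated from the steps. Such fragments could not be recovered for every gene, and depths are estimates. Tables and figures used Python 3.11.15.

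The members, the gene lists and the rule for named genes were chosen with earlier results of these data known. The rule names all members, the genes around PLA2G2A, PLA2R1, PTGS1, PTGS2, ALOX5, ALOX15B, in each list up to 4 genes past the threshold with the smallest p against DMSO, and the genes with the 6 highest and 3 lowest r with PLA2G2A. One gene that the rule takes is not reported here. Alternatives were a pseudocount of 0.1, no filter, a filter at 5 FPKM, quantile normalization, median-of-ratios scaling, only the compared groups, a replicate block, and each library left out. Gene coordinates are of GENCODE 29 and promoters of RefSeq.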

Additional observations from a re-analysis of the deposited data

Results flagged for a closer look

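The effect of one agent differed with the other present for 14 of the named related genes and for OTUD3, by limma's test of the interaction in log2(FPKM + 1), adjusted over all tested genes. Among all tested genes 9.99% were called higher and 29.6% lower for the interaction. The named related genes were picked for a small p against DMSO in these data, so nothing is read from their count. Of all 45 tested related genes, named or not, 6 were called higher. Among these 14 named genes the 3 positive values were PNPLA7 at 1.02 (SE 0.15, adjusted p = 0.000615), MBOAT2 at 0.68 (SE 0.087, adjusted p = 0.000282) and ABCC4 at 0.62 (SE 0.092, adjusted p = 0.00068). OTUD3 was at 0.57 (SE 0.12, adjusted p = 0.0041). The most negative were ACSL1 at −1.73 (SE 0.086, adjusted p = 1.55e-06) and ACSL3 at −1.04 (SE 0.085, adjusted p = 2.1e-05). For ACSL1 the EPZ libraries were above DMSO and the Combination libraries below. Values between −0.72 and −0.60 were found for LYPLA1 (−0.71), CBR1 (−0.69), PTGES3 (−0.63), MBOAT1 (−0.63) and ABHD3 (−0.61), with adjusted p from 0.000602 to 0.0115. Smaller values were found for ANXA5 (−0.43, adjusted p = 0.00194), LPAR3 (−0.36, adjusted p = 0.0212), PLAA (−0.35, adjusted p = 0.0141) and PRDX6 (−0.27, adjusted p = 0.0177). These last 4 lost their call under some alternatives, ANXA5 under quantile normalization (−0.20). PRDX6 did so without the first (−0.26) or second DMSO library (−0.29), the second EPZ library (−0.24) or the first Combination library (−0.22) and with median-of-ratios scaling (−0.14), and turned to 0.070 under quantile normalization. PLAA did so without the first DMSO (−0.33), second EPZ (−0.30) or first Combination library (−0.32) and with median-of-ratios scaling (−0.23). LPAR3 did so without either DMSO library (−0.37 and −0.35), either EPZ library (−0.37 and −0.36) or the first Combination library (−0.26), without a filter (−0.36) and with median-of-ratios scaling (−0.24). MBOAT1 lost its call without a filter or with a pseudocount of 0.1 (−0.63 in both). The median interaction of all genes was −0.12.

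For 2 members the libraries lay on opposite sides of the compared group with and without the other agent, and the difference was not tested because the members were chosen from these values. The single-agent differences were about the size of their standard errors. PLA2G7 was at −0.12 (SE 0.11) for EPZ against DMSO, with 1.38 against 1.39 FPKM in the nearest libraries, and at 0.27 for Combination against ENZ. PLA2G12A was at 0.06 (SE 0.067) for ENZ against DMSO, and at −0.46 for Combination against EPZ. The interaction was 0.40 for PLA2G7 and −0.52 for PLA2G12A.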

How the results depend on the processing

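With 2 libraries per group and 9 and 19 estimated fragments in DMSO, the size of the PLA2G2A differences against DMSO depends on the pseudocount. With 0.1 they were 6.93 for ENZ, 3.69 for EPZ and 10.09 for Combination, and the PLA2G2A interaction reversed to −0.53. With quantile normalization PLA2G2A stood at 9.46 for Combination against DMSO, 3.81 against ENZ, 6.93 against EPZ and 1.28 for the interaction, and with median-of-ratios scaling at 3.35 against ENZ. With a library left out, PLA2G2A ranged from 5.72 to 6.01 for ENZ, 2.59 to 2.88 for EPZ, 8.88 to 9.16 for Combination, 3.07 to 3.24 against ENZ, 6.14 to 6.43 against EPZ and 0.28 to 0.57 for the interaction. PLA2G7 reversed to −0.017 for Combination against DMSO under quantile normalization. Of the values of the other members under alternatives, 273 moved by less than the spread, 48 moved by more and 1 reversed.

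Of the related genes, 29 rose with Combination without a filter and 7 with the filter at 5 FPKM, against EPZ 17 and 4, since these alternatives test more or fewer genes. With a library left out, the related genes that rose with ENZ numbered 6 to 13 (6 without the second DMSO library), and those lower in the interaction 11 to 23 (11 without the second EPZ library, 13 without the first Combination library). Median-of-ratios scaling gave 11 lower. The cause was not tested. With the replicate number as a block the related genes that rose and fell were 13 and 13 with ENZ, 18 and 10 with EPZ, and 13 and 26 with Combination. Deviations of libraries with the same number correlated at −0.0153 to 0.109, highest for the pairs with ENZ (0.0987 to 0.109). Whether libraries with the same number shared a batch was not tested.

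Scaling moved the split of all called genes. For Combination against ENZ 35.7% of called genes were higher, 51.2% with median-of-ratios scaling and 50% with quantile normalization, and for the interaction 25.2%, 44.3% and 47.8%. Of the values of named related genes and OTUD3 past the threshold, examined under the same alternatives after seeing the data, 1155 kept direction and call, 55 lost the call and 6 reversed. The reversed ones were ANXA5 with Combination against DMSO (0.045 with median-of-ratios scaling, 0.50 with quantile normalization), and under quantile normalization ANXA5 against ENZ (0.19) and EPZ (0.12), ABCC4 with Combination against DMSO (0.33) and the PRDX6 interaction (0.070).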

Other observations

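Some listed genes outside the rule for named genes were chosen after their values were seen. PLA2G4E, a cytosolic enzyme of the family of PLA2G4F, stood at 0.773 and 0.856 FPKM in DMSO, 0.0109 and 0.0192 with ENZ, 0.78 and 0.909 with EPZ, and 0.0651 and 0.0511 with Combination. The estimated fragments were 57 and 83, 1 and 2, 91 and 97, and 6 and 4. Both groups that received ENZ lay below the others without overlap, and EPZ overlapped DMSO. The mean of PLA2G4E was below the filter, so no test was made.

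RARRES3, a phospholipase A and acyltransferase of the HRAS-like suppressor family, stood at 0.17 and 0.129 FPKM in DMSO and at 2.37 and 2.24 with Combination, with ENZ (0.543 and 0.48) and EPZ (0.589 and 0.351) between. ANXA1, an annexin known as an inhibitor of phospholipase A2, was listed at 0 in both DMSO libraries and stood at 0.0676 and 0.0597 FPKM with ENZ, 0.507 and 0.554 with EPZ, and 1.99 and 1.67 with Combination. LTC4S, the leukotriene C4 synthase, stood at 1.94 and 2.07 FPKM in DMSO, 4.12 and 2.61 with ENZ, 3.13 and 1.81 with EPZ, and 8.24 and 8.61 with Combination. ALOX15, a lipoxygenase, was the lipoxygenase with the highest level, from 38.2 to 49.7 FPKM over the 8 libraries, and EPZ and Combination lay above DMSO.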
